A study of Rattus norvegicus with 14 samples.

Results

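Isolated CpG-dense stretches of the rat genome that carried almost no DNA methylation in the intact oesophagus were followed after surgical repair. The genome was divided into 1 kb tiles on chromosomes 1 to 20, and a tile was taken where at least 60 CpG cytosines were listed in any of the 13 libraries, where fewer than 5 such dense tiles lay in its 20 kb window, and where at least 3 cytosines were each listed in at least 3 libraries of each group. They were then chosen by their measured methylation, a pooled level below 10% in the non-surgical controls. This gave 5266 tiles out of 64549 measured tiles (8.16%). They were 85.7% of the 6143 isolated dense tiles that could be measured; 877 isolated dense tiles stood at 10% or more in the controls, and 110 measured dense tiles lay in windows with 5 or more. The low level in the controls is therefore how the tiles were chosen and is not a finding.

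The data were reduced representation bisulfite sequencing (RRBS) of oesophageal DNA from male rats of 8 to 9 weeks; RRBS cuts the genome at MspI sites, keeps short fragments and reads methylated cytosines as those that survive bisulfite conversion. Day 1 (5 libraries) was host tissue within 2 mm of a defect repaired with a bi-layer silk fibroin graft, taken 1 day after surgery. Week 1 (4 libraries; 1 more sample was not analysed here) was new tissue from the graft area at day 7, and NSC (4 libraries) was full-thickness oesophagus of rats without surgery. The 3 groups thus differ in site and layers as well as in time, and the labels name no sham-operated animals. All samples were bulk tissue, so a change in the mix of cells and a change of methylation within cells cannot be told apart. The labels do not state that samples came from separate animals, and the sample codes run in the order of the groups, so that processing order and group cannot be told apart.

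CpG-dense stretches of mammalian genomes, known as CpG islands, are usually kept free of methylation although most other CpGs are methylated. Many of them cover the starts of genes, including nearly every housekeeping gene and many regulators of development. Methylation of such a stretch at a gene start is known to accompany stable silencing, whereas a gene with an unmethylated start may be active or inactive.

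The promoters of 5 genes are printed as examples at the level of bases. They were picked by their values and do not stand for the tiles as a set. Igdcc4 (a cell-surface protein of the immunoglobulin superfamily), Kl (klotho, a co-receptor of a fibroblast growth factor), Nkx6-2 (a homeobox factor) and Zbtb47 (a zinc finger protein) are shown because the CpGs measured within the promoter itself were higher after surgery, and Klf5, a transcription factor of basal oesophageal keratinocytes, because its CpGs stayed near 0. The 300 bases of each promoter are written 5′ to 3′ on the strand of the gene, from RefSeq (GRCr8), and capitals mark CpGs with at least 1 measured cytosine.
Igdcc4: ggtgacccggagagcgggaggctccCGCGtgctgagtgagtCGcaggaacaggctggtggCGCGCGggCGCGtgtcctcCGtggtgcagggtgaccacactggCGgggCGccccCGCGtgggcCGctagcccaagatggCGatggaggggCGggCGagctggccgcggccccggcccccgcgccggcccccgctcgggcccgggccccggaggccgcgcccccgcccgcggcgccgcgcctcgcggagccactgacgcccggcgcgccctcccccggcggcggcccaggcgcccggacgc
Kl: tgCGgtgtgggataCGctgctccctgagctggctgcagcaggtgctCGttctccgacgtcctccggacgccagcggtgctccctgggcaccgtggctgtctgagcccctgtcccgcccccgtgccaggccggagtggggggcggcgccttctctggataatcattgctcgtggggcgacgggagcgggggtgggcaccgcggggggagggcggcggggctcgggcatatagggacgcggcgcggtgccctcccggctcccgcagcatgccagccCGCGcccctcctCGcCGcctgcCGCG
Nkx6-2: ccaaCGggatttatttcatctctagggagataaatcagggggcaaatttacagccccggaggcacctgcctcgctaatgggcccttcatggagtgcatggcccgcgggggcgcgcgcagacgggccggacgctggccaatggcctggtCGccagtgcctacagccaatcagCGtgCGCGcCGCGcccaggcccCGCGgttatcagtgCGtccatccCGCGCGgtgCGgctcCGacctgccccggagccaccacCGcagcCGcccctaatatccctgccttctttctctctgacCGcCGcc
Zbtb47: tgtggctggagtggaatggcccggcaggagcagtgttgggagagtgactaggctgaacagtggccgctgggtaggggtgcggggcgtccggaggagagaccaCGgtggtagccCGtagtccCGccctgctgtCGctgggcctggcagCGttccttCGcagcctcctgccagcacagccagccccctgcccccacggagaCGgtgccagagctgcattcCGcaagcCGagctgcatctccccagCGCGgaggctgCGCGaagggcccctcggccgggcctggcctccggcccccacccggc
Klf5: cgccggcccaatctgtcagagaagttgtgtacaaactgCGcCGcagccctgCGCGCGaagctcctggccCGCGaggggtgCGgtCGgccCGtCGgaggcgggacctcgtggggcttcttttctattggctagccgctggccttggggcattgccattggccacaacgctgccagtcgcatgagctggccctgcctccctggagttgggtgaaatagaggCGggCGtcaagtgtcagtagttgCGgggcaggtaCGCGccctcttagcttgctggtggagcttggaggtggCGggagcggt
The spacing of the listed cytosines placed these windows in mRatBN7.2 at chr8:65622148-65622447 (plus strand), chr12:490152-490451 (plus), chr1:194383466-194383765 (minus), chr8:121422965-121423264 (plus) and chr15:76064008-76064307 (plus). They hold 49, 35, 30, 23 and 25 CpGs in the same order, of which 17, 9, 19, 13 and 17 were measured. In the Igdcc4 window the group means of single cytosines reached 33.8% at day 1, 40.3% at week 1 and 8.71% in NSC. In the Klf5 window no cytosine exceeded 4.76% at day 1, 1.39% at week 1 or 1.56% in NSC.

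Summed reads over listed cytosines ran from 9676493 to 33953856 at day 1, from 11340709 to 26135062 at week 1 and from 26135180 to 49782600 in NSC, and the deepest libraries were controls. Day 1 replicate 2 was the shallowest library and read 39.8% of the tiles, against 78.997% to 99.8% in the other 12. Among pairs of libraries, at most 6.05% of the cytosines read in both had the same counts in both, so no library was a copy of another. Methylation in all other measured tiles averaged 69.9% ± 2.67 at day 1 (SD, n = 5), 69.2% ± 1.56 at week 1 (n = 4) and 65.0% ± 0.206 in NSC (n = 4).

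A tile of this kind held a median of 80 listed cytosines (60 to 203) and 12 measured ones (3 to 85), 71582 measured cytosines in all. Most were alone: 3299 (62.6%) were the single dense tile of their window, and 1377, 416 and 174 shared it with 1, 2 and 3 other dense tiles. The median distance to the next such tile was 148 kb, although 1016 lay directly beside another. Chromosome 1 held the most, 647, and density ran from 1.42 per Mb on chromosome 15 to 4.23 per Mb on chromosome 10. The densest tile, with 203 listed cytosines, lay at chr9:94282001-94283000 over the starts of Atg4b, an autophagy protease, and Thap4. Its methylation averaged 0.342% ± 0.685 at day 1 (n = 4), 0.590% ± 0.682 at week 1 (n = 4) and 0.301% ± 0.602 in NSC (n = 4).

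Just inside the limit of 10%, 3 tiles had pooled NSC levels of 9.94%, 9.95% and 9.97%; just outside it, 3 tiles had 10.01%, 10.05% and 10.06%. The first of those inside, at chr1:95654001-95655000, averaged 4.60% ± 2.17 at day 1 (n = 4), 7.58% ± 5.72 at week 1 (n = 4) and 9.62% ± 1.64 in NSC (n = 4). The second lay at chr3:59575001-59576000, 4.85 kb from the start of Hoxd13, a homeobox gene of limb and hindgut development, and averaged 4.76% ± 3.29 at day 1 (n = 5), 4.67% ± 1.04 at week 1 (n = 4) and 10.2% ± 4.10 in NSC (n = 4). The third, at chr17:32838001-32839000, averaged 4.76% ± 3.28 at day 1 (n = 4), 12.4% ± 11.2 at week 1 (n = 3) and 9.91% ± 4.26 in NSC (n = 4). These values are given without a test.

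The tiles stayed sparsely methylated in every group. Averaged over tiles, methylation was 1.73%, 1.60%, 1.63%, 1.78% and 1.51% in the day 1 libraries, 1.56%, 1.72%, 1.48% and 1.51% in the week 1 libraries and 0.972%, 0.981%, 1.07% and 1.12% in the NSC libraries. Every day 1 and week 1 library lay above every NSC library, while the day 1 and week 1 libraries overlapped. The group means were 1.65% ± 0.106 at day 1 (SD, n = 5), 1.57% ± 0.107 at week 1 (n = 4) and 1.04% ± 0.0723 in NSC (n = 4). Because NSC values were used to choose the tiles, this gap with NSC has no test. The same order of groups was seen over the 5770 cytosines in these tiles that all 13 libraries listed, at 1.53% ± 0.175 at day 1, 1.49% ± 0.0436 at week 1 and 1.09% ± 0.112 in NSC.

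**Figure D1:**
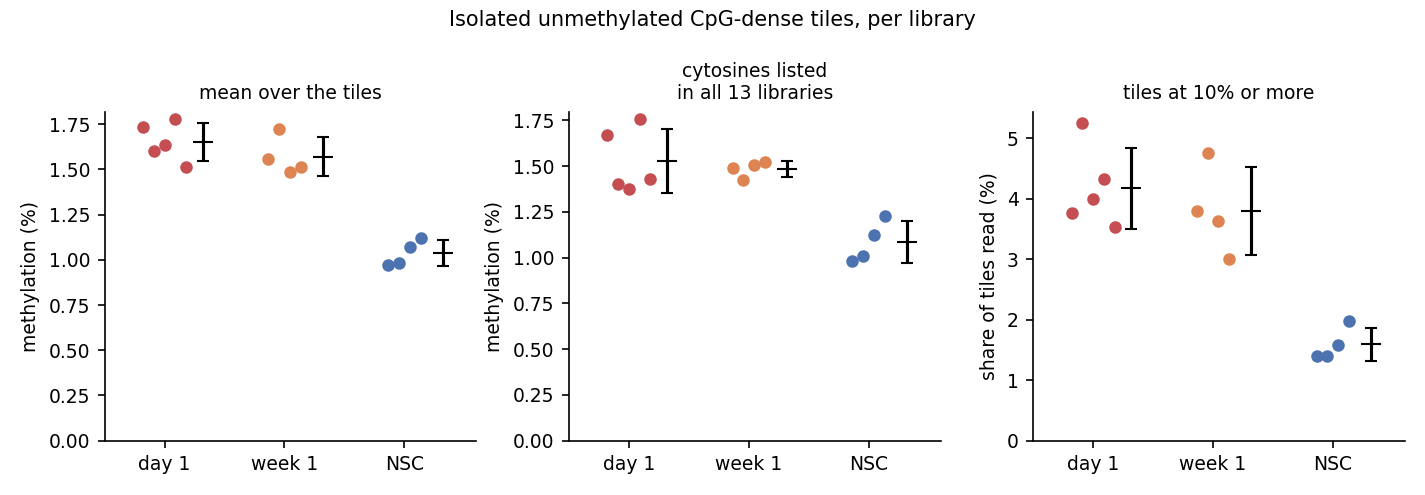
Methylation of the 5266 tiles in each library (points) with the group mean and SD (black), as the mean over tiles (left), over cytosines listed in all 13 libraries (middle) and as the share of the tiles read in a library that stood at 10% or more (right). The day 1 and week 1 points lie above the NSC points in all 3 panels and overlap each other. The tiles were chosen below 10% in NSC, so nothing is read from the gap with NSC in the right panel.

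The spread over tiles is given next as a description. The choice limits NSC levels and not those after surgery, so a shorter upper tail in NSC follows from it and nothing is read from the gap there. The median tile had 0.388% at day 1, 0.347% at week 1 and 0.347% in NSC, and the 99th percentile was 16.2%, 15.9% and 8.78% in that order of groups. In 1375 tiles at day 1, 1635 at week 1 and 1312 in NSC no methylated read was seen, and 450 tiles had none in any of the 13 libraries. At the median depth of those 450 tiles, a count of 0 allows a level of up to 0.426% (3 counts; counting error only, since cytosines of a read are not independent). A group mean of 10% or more was reached by 171 tiles at day 1 (3.25%), 140 at week 1 (2.66%) and 23 in NSC (0.437%, from averaging libraries equally where the choice pooled reads). Of the tiles past 10% after surgery, 88 were so at both times, 83 at day 1 only and 52 at week 1 only. The median SD over libraries of a tile was 0.581 points at day 1, 0.507 at week 1 and 0.442 in NSC, with 99th percentiles of 11.7, 12.5 and 7.40 points.

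**Figure D2:**
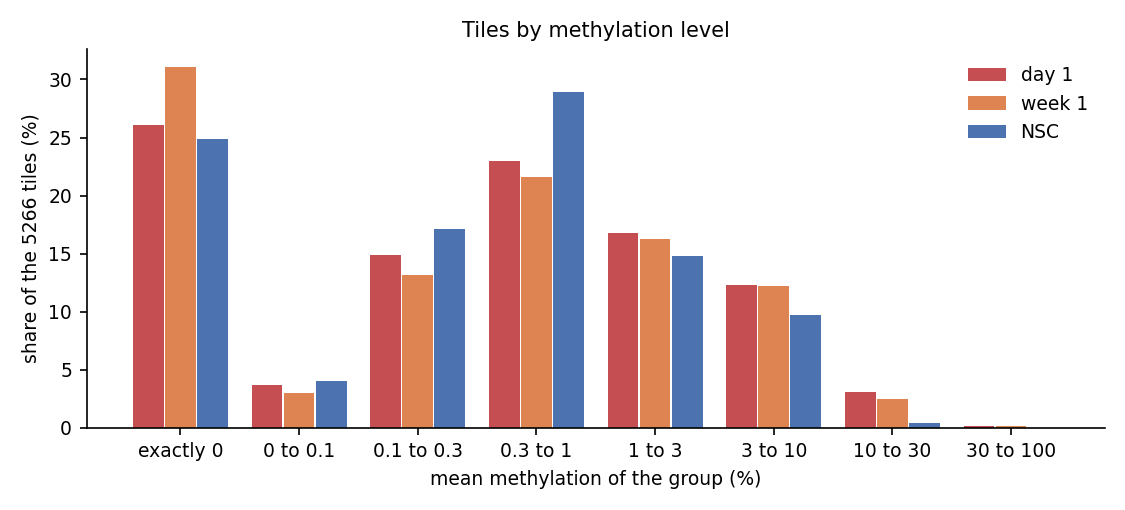
Share of the 5266 tiles (vertical axis) in classes of mean methylation in percent (horizontal axis), for day 1, week 1 and NSC. In each group most tiles lie below 1% (67.7%, 68.8% and 75.03%), and the classes above 10% hold 3.25%, 2.66% and 0.437%.

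Single cytosines lie in tiles chosen for a low NSC level, so their values are again a description. Cytosines above 50% made up 0.450% ± 0.126 of those read at day 1 (n = 5), 0.373% ± 0.0938 at week 1 (n = 4) and 0.151% ± 0.0260 in NSC (n = 4). The share at exactly 0% was 92.0% ± 2.40, 92.2% ± 2.19 and 92.1% ± 0.435 in the same order, and its group ranges overlapped.

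The comparison that the choice of tiles left untouched is that of week 1 with day 1. No tile of the 4816 with a methylated read passed an adjusted p of 0.05 there (edgeR quasi-likelihood F test on methylated and unmethylated counts, Benjamini-Hochberg over all 63345 tested tiles), and none did over the whole table (0%). At an unadjusted p below 0.05, 354 of the 4816 were found (7.35%; 163 higher and 191 lower at week 1), against 6.28% of all tested tiles (1.66% higher and 4.62% lower). With limma the adjusted count was again 0, with 84 tiles at an unadjusted p below 0.05 on the percent scale (1.60% of the 5266, against 7.36% of all measured tiles) and 229 on log2 odds (4.35%, against 7.96%). Groups did not overlap in 63 of the 5266 tiles, 27 higher and 36 lower at week 1, against 3.97% of all measured tiles (0.965% higher and 3% lower). The difference of week 1 minus day 1 had a median of 0 points, and 98 in 100 tiles lay between -7.41 and 6.32 points.

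The week 1 to day 1 comparison can be seen in single tiles. The start of Fbxo31, an F-box subunit of a ubiquitin ligase, had 0.585%, 1.25%, 0.775% and 0.455% at week 1, against 0% in all 5 day 1 libraries. The 0% of day 1 replicate 2 came from 14 reads, which allow up to 21.4% (3 counts, counting error only). By these values the groups did not overlap, yet the adjusted p was 0.722. With no methylated read at day 1, the log2 odds ratio of 4.15 ± 1.13 (SE) is no measure of size. At chr16:65078001-65079000, a tile with no placed gene start, week 1 libraries had 38.1%, 20.4% and 23.2%, against 1.79%, 0%, 2.52%, 13.1% and 21.9% at day 1. Here the ranges overlapped, and the adjusted p was 0.753.

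Against NSC, tiles that changed by at least 10 points were nearly all higher after surgery. At day 1, 33 of the 4816 tested tiles (0.685%) were called at an adjusted p below 0.05 and a difference of 10 points or more, all 33 higher. The same rule called 9.18% of all tested tiles, 7.29% higher and 1.89% lower. At week 1, 16 were called (0.332%), 15 higher and 1 lower, against 4.82% of all tested tiles, 3.51% higher and 1.31% lower. All p-values against NSC, for these counts and for the single tiles described further on, are descriptions, because NSC values took part in the choice. Fits without 1 library share that choice and lend no support of their own. A tile below 10% in NSC can hardly fall by 10 points, so the direction follows from the choice of the tiles and nothing is read from it. Without the minimum of 10 points, 204 tiles passed at day 1 (4.24%; 179 higher and 25 lower), against 10.1% of all tested tiles (8.09% higher and 2.04% lower). At week 1, 128 passed (2.66%; 105 higher and 23 lower), against 5.21% (3.81% higher and 1.41% lower). At an unadjusted p below 0.05 there were 847 tiles at day 1 (665 higher and 182 lower), against 26.6% of all tested tiles (22.1% higher and 4.43% lower). At week 1 there were 788 (595 higher and 193 lower), against 19.5% (15.1% higher and 4.42% lower). Groups did not overlap in 214 of the 5266 tiles at day 1 (4.06%; 177 higher and 37 lower), against 18.9% of all measured tiles (15.9% higher and 3% lower). At week 1 they did not in 232 (4.41%; 176 higher and 56 lower), against 15.5% (12% higher and 3.47% lower). The comparisons share the NSC libraries; 64 of the 179 and of the 105 higher tiles were the same, as were 5 of the 25 and of the 23 lower ones. A fit on dense tiles alone estimates the spread from them. Its share over all its tiles is not given here, so its counts have no background beside them. In this fit the counts fell to 9 and 3 with the minimum, and to 25 and 13 without it. Of the tiles named for a change of 10 points, it kept 3 of 10 at day 1 (those on chromosomes 14 and 20 and chr1:78742001-78743000) and 3 of 11 at week 1 (that same tile on chromosome 1, chr3:165504001-165505000 and chr10:16681001-16682000). Among the gene starts that passed, it kept 2 of 59 at day 1 (Pfn3 and LOC134482676) and 1 of 35 at week 1 (Thsd7a), and the calls at the other named starts were lost. Limma was also run after centring each library on its median over tiles. That median lies 8.45 points higher at day 1 and 6.53 higher at week 1 than in NSC. Tiles near 0% therefore fall by about that shift by construction, and nothing is read from the split. With the adjusted p alone it was 4 higher and 4485 lower at day 1, and 3 higher and 273 lower at week 1. The shares over all tiles after centring are not given here.

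The comparison was repeated with NSC libraries whose methylation had no part in the choice. Their listed cytosines still counted towards the density and coverage conditions, and both repeats used the same day 1 and week 1 libraries. When NSC replicates 1 and 2 chose the tiles and replicates 3 and 4 were compared, 13 of 4665 tested tiles were called at day 1 (0.279%; 11 higher and 2 lower), against 2.5% of all tested tiles. With the pairs exchanged, 19 of 4650 were called (15 higher and 4 lower), against 2.73%. At week 1 the counts were 5 and 4, all higher, against 1.07% and 1.21%, and 24 and 35 with the adjusted p alone, against 1.13% and 1.29%. With the adjusted p alone, day 1 gave 60 tiles (48 higher and 12 lower), against 2.66% of all tested tiles, and 89 (76 higher and 13 lower), against 2.94%. Over the tiles chosen this way, methylation averaged 1.69% and 1.66% at day 1 and 1.56% and 1.55% at week 1, against 1.16% and 1.06% in the NSC libraries that were held out. These counts are lower than those with 4 NSC libraries, but only 2 entered each fit, and the share over all tested tiles was lower as well, so the part of the choice and that of the number of libraries cannot be told apart.

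Of the called tiles, 27 of 33 at day 1 and 15 of 16 at week 1 had no placed gene start, as did 2915 of the 4816 tested tiles; the difference was not tested. The tile at chr20:35475001-35476000 had 28 measured cytosines and 119 listed ones. Its methylation was 48.9%, 23.9%, 41.7%, 62.9% and 64.5% in the day 1 libraries, 33.3%, 5.71%, 20.2% and 60.3% in the week 1 libraries and 12.2%, 11.6%, 3.38% and 7.67% in the NSC libraries. Every day 1 library was above every NSC library, and the week 1 libraries overlapped with both other groups. All 28 cytosines were higher at each time than in NSC. Such counts of cytosines, here and in tiles below, are descriptions. The tiles were named for their values, and cytosines of a read are not independent. For this tile the log2 odds ratio against NSC was 3.43 ± 0.608 (SE) at day 1 (adjusted p = 0.000726) and 2.24 ± 0.665 at week 1 (adjusted p = 0.0453).

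The tile at chr19:52856001-52857000, 0.999 kb from the start of Exoc8, a subunit of the exocyst that tethers secretory vesicles, was read by 230 to 781 reads in each library that covered it. It had 21.1%, 29.3%, 29.3% and 34.8% at day 1, 16.0%, 16.5%, 24.4% and 24.0% at week 1 and 5.12%, 8.99%, 7.94% and 8.57% in NSC. Neither group overlapped with NSC, and the log2 odds ratio was 2.27 ± 0.413 at day 1 (adjusted p = 0.00105) and 1.61 ± 0.413 at week 1 (adjusted p = 0.0212). The tile at chr10:81319001-81320000 averaged 26.1% ± 5.99 at day 1 (n = 4), 25.4% ± 9.74 at week 1 (n = 4) and 5.45% ± 3.51 in NSC (n = 4), with adjusted p of 0.00896 and 0.0167. Its week 1 call was lost in fits without week 1 replicate 1, week 1 replicate 4 or NSC replicate 2, where the adjusted p reached 0.0685.

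The highest level rested on few reads. At chr1:78742001-78743000, 3 measured cytosines with 15 to 55 reads a library averaged 67.8% ± 23.6 at day 1 (n = 3), 58.0% ± 25.9 at week 1 (n = 4) and 1.36% ± 2.73 in NSC (n = 4). No library after surgery fell below 33.3%, and the adjusted p was 0.00183 at day 1 and 0.00631 at week 1. At chr14:86255001-86256000 the day 1 libraries had 35.6%, 45.7%, 82.5% and 25.6% and the NSC libraries 6.38%, 1.79%, 0% and 0% (adjusted p = 0.0138). The week 1 libraries were spread from 0% to 92.0% (adjusted p = 0.130). For NSC replicate 4 and week 1 replicate 3 the 0% came from 12 reads each, which allow up to 25% (3 counts, counting error only). At chr1:246754001-246755000 the level was 42.8% ± 9.59 at day 1 (n = 4), 30.1% ± 16.3 at week 1 (n = 4) and 9.68% ± 7.39 in NSC (n = 4), with adjusted p of 0.0121 and 0.0927.

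The other tiles named at day 1 behaved less evenly. At chr15:28028001-28029000 a single library carried the difference, with 8.33%, 3.80% and 52.5% at day 1 and 0% in 3 NSC libraries, and the call (adjusted p = 0.0489) was lost in 8 of 13 fits without 1 library, with an adjusted p up to 0.136. These were the fits without day 1 replicates 1, 2 or 5, week 1 replicate 4 or any of the 4 NSC libraries. At chr5:59784001-59785000, a tile with 163 listed cytosines of which 3 were measured, levels averaged 19.1% ± 12.7 at day 1 (n = 5) and 1.77% ± 1.37 in NSC (n = 4; adjusted p = 0.0207, up to 0.0695 without NSC replicate 1 or 3). At chr6:26320001-26321000, 0.762 kb from the start of Rab10, a small GTPase of vesicle transport, levels averaged 22.5% ± 2.52 at day 1 (n = 4), 20.5% ± 9.18 at week 1 (n = 4) and 5.40% ± 4.23 in NSC (n = 4). The adjusted p was 0.0131 at day 1, and 0.0515 without NSC replicate 2.

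**Figure D3:**
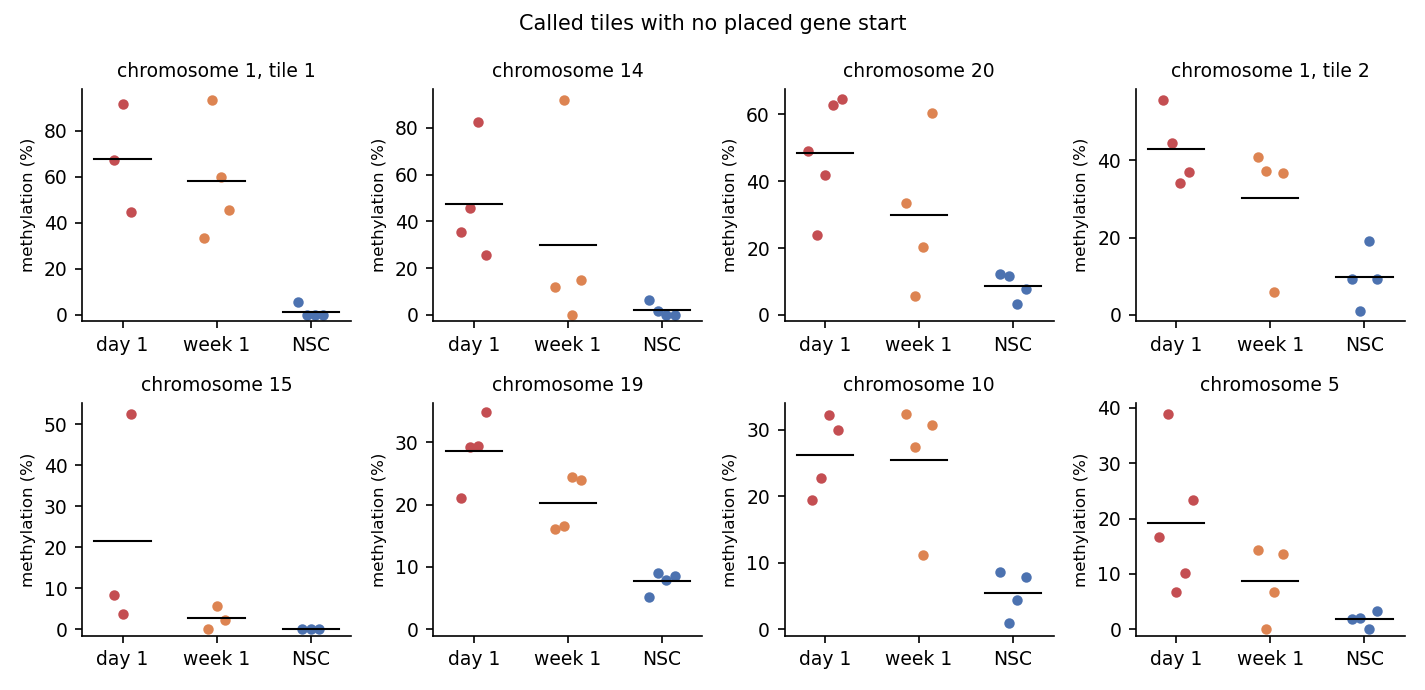
Methylation in percent (vertical axis) of 8 called tiles with no placed gene start, by library (points) and group mean (line) for day 1, week 1 and NSC. Day 1 points lie above NSC points in each panel, since tiles were named for groups that do not overlap, while week 1 points reach down to the NSC range in the panels of chromosomes 14, 15, 20 and 5 and of the second tile on chromosome 1.

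At week 1 the largest differences with NSC lay elsewhere in part. At chr3:10990001-10991000, 3 measured cytosines averaged 42.5% ± 12.7 at week 1 (n = 3), against 5.75% ± 5.79 in NSC (n = 4; adjusted p = 0.0138). This call was lost without week 1 replicate 1, week 1 replicate 4 or NSC replicate 1, with an adjusted p up to 0.0588. At chr3:165504001-165505000, 0.955 kb from the start of Ppp1r3d, a glycogen-targeting subunit of protein phosphatase, week 1 libraries had 19.4%, 22.4% and 57.6%, against 1.48%, 0%, 4.31% and 2.78% in NSC (adjusted p = 0.0059), and all 9 measured cytosines were higher. The tile at chr10:16681001-16682000 had 23.5%, 24.3%, 19.3% and 14.9% at week 1, against 2.76%, 0.830%, 0% and 5.20% in NSC, and its log2 odds ratio of 3.65 ± 0.709 had an adjusted p of 0.00333. At chr5:14532001-14533000 the level was 24.1% ± 17.5 at week 1 (n = 4) and 3.19% ± 2.95 in NSC (n = 4; adjusted p = 0.00623), and day 1 libraries lay between 13.5% and 21.2%.

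At 4 other tiles named at week 1 the call was lost in at least 1 fit without a single library. At chr16:65078001-65079000 (27.2% ± 9.51 at week 1, n = 3, and 4.48% ± 2.94 in NSC, n = 4; adjusted p = 0.0144) the adjusted p was 0.0623 without week 1 replicate 1. At chr15:45249001-45250000 the adjusted p of 0.0454 rose to as much as 0.142 without week 1 replicate 2 or 4 or NSC replicate 2, 3 or 4, and at chr7:134080001-134081000 that of 0.0241 rose to as much as 0.0926 without week 1 replicate 2 or 3 or NSC replicate 2, 3 or 4. The single lower tile, at chr17:9425001-9426000, had 0.645% ± 0.577 at week 1 (n = 3) and 10.9% ± 8.92 in NSC (n = 4). Its adjusted p of 0.0459 rose to as much as 0.138 without any of the 4 week 1 libraries or without NSC replicate 2 or 3.

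The lowest p-values came from tiles with many measured cytosines. The lowest p at day 1 belonged to chr3:168786001-168787000, with 33 measured cytosines. It had 19.4%, 12.6%, 14.2% and 6.74% at day 1, 6.58%, 7.25%, 4.31% and 8.50% at week 1 and 1.70%, 0.324%, 0.562% and 0.591% in NSC. No NSC library reached the lowest library after surgery, and the adjusted p was 5.43e-05 at day 1 and 0.0014 at week 1. At chr6:10491001-10492000, 1.47 kb from the start of Zfp36l2, a zinc finger protein that promotes decay of messenger RNA, the direction was downward: 0.229% ± 0.259 at day 1 (n = 5), 0.525% ± 0.488 at week 1 (n = 4) and 5.01% ± 2.32 in NSC (n = 4). Of its 47 measured cytosines 36 were lower at day 1 than in NSC, and the adjusted p was 0.00011 at day 1 and 0.00336 at week 1. The deepest of these tiles, at chr18:17064001-17065000 with 350 to 3589 reads a library, had 6.78% ± 1.47 at day 1 (n = 5), 5.36% ± 2.23 at week 1 (n = 4) and 2.04% ± 0.431 in NSC (n = 4). These 3 tiles were named by their p after the values were seen.

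Gene starts could be assigned to part of the tiles. No annotation of mRatBN7.2 was used; instead, the 300-base RefSeq promoters were laid on the listed cytosines so that every listed cytosine of the window fell on a CpG base. A unique fit on the chromosome named by RefSeq with at least 20 listed cytosines was accepted for 6393 promoters of 5843 genes. Before that condition 96.4% of fits were on the named chromosome, and the same search with mirrored sequences gave 231 fits, against 6907. A gene start was placed in 2128 of the tiles (40.4%), for 2411 genes, 2193 of them protein-coding and 218 lncRNA genes. A tile with no placed start may still hold one, since sparse listing prevents a fit.

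The promoters in these tiles were compared with those placed anywhere and with all promoters of the table. Dense listing was required of the tiles and of each placement, so richness in CpG follows from the choice. The 2419 promoter sequences had medians of 28 CpGs in 300 bases, 65% G and C and an observed to expected CpG ratio of 0.90, against 7 CpGs, 51.7% and 0.39 over all 33469 promoters in the table. The 5920 promoters placed in any tile were close to them, with medians of 26 CpGs, 64.3% and 0.86. The GC box (GGGCGG, either strand), which Sp1-type factors bind, was in 76.4% of the promoters in these tiles, 72.7% of those placed anywhere and 33.1% of all. In the same order, the TATA box (TATAAA) was in 3.93%, 4.32% and 14.2%, the ETS motif (CCGGAAG) in 18.8%, 18.0% and 8.75%, and the CCAAT box (CCAAT) in 38.5%, 38.4% and 37.5%. The MspI site itself (CCGG), at which RRBS reads begin, was in 94.8%, 92.9% and 51.4%. Of the promoters printed above, Kl holds 3 GC boxes, Igdcc4 2, and Nkx6-2 and Zbtb47 1 each, while the Klf5 window has none and holds 3 CCAAT boxes.

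Tiles with a placed gene start were less methylated than the others, a difference given without a test. They averaged 1.05% at day 1, 0.962% at week 1 and 0.679% in NSC, and those without averaged 2.06%, 1.93% and 1.27%. The first kind reached 10% in 41, 28 and 5 tiles (1.93%, 1.32% and 0.235%) and the second in 130, 112 and 18 (4.14%, 3.57% and 0.574%), each in the order day 1, week 1, NSC. Of 1901 tested tiles with a gene start, 60 passed the adjusted p at day 1 (3.16%; 51 higher and 9 lower) and 36 at week 1 (1.89%; 31 higher and 5 lower), 20 of them at both times; 6 and 1 also met the 10 points. Of the 2915 without one, 4.94% passed at day 1 and 3.16% at week 1, and over all tested tiles the shares were 10.1% and 5.21%.

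Around the start itself methylation formed a narrow trough. The starts lie in tiles chosen for a low NSC level. A low centre and a rise outside the tile therefore follow from the choice, and the values are a description. In the 200 bases upstream of the start, 9545 cytosines averaged 0.515% ± 0.105 at day 1, 0.516% ± 0.0360 at week 1 and 0.410% ± 0.0741 in NSC, and the 200 bases downstream had 0.574% ± 0.132, 0.565% ± 0.0945 and 0.409% ± 0.0664. Levels were 6.55% ± 0.463, 6.38% ± 0.573 and 5.23% ± 0.301 at 600 to 800 bases upstream, and 36.7% ± 11.3, 39.3% ± 7.11 and 33.4% ± 0.870 at 1800 to 2000 bases upstream. Neighbouring tiles were more methylated with distance. The 1890 measured tiles directly beside a member of the set averaged 14.4% ± 0.408 at day 1, 14.1% ± 0.752 at week 1 and 12.4% ± 0.146 in NSC, and those 2 tiles away 43.8% ± 4.17, 45.2% ± 1.40 and 42.3% ± 0.763. At 10 tiles the level was 70.0% ± 1.72, 69.3% ± 1.05 and 63.9% ± 0.189 (n = 5, 4 and 4 throughout).

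**Figure D4:**
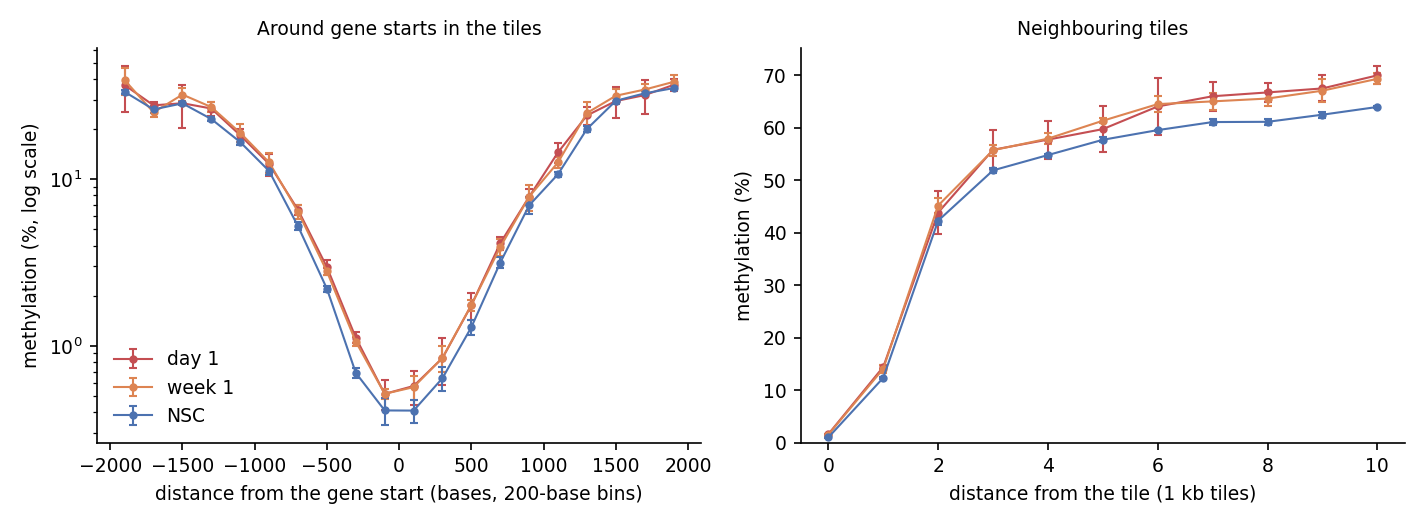
Methylation around placed gene starts in the tiles (left; log scale, in 200-base bins) and in neighbouring 1 kb tiles by distance (right), as group means over libraries with SD. All 3 groups are lowest within 200 bases of the start (0.409% to 0.574%) and climb over the neighbouring tiles, to 12.4% to 14.4% beside the tile and 63.9% to 70.0% at 10 tiles. The low centre follows from the choice of tiles below 10% in NSC.

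The flanks, again without dense tiles, had their own tests. Directly beside the tiles, 68 of 1750 tested neighbours (3.89%) were called at day 1, 53 higher and 15 lower, and 38 (2.17%) at week 1, 27 higher and 11 lower. At 2, 3, 4 and 5 tiles the shares were 9.63%, 10.5%, 12.3% and 11.2% at day 1 and 3.66%, 4.90%, 8.09% and 6.09% at week 1, beside 9.18% and 4.82% of all tested tiles. None was called between week 1 and day 1 at 1 to 5 tiles.

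Single gene starts that passed are described next, chosen after their values were seen. Snai1, the zinc finger repressor that switches epithelial cells towards a mesenchymal state, had its start in the tile at chr3:156248001-156249000, with 18 measured cytosines, all downstream of the start and none beyond 515 bases. Methylation was 7.00%, 23.7%, 11.4% and 6.79% at day 1, 6.25%, 0%, 7.96% and 9.03% at week 1 and 1.25%, 0%, 2.53% and 2.13% in NSC. The 0% at week 1 came from 15 reads, which allow up to 20% (3 counts; counting error only). Day 1 did not overlap with NSC (log2 odds ratio 2.90 ± 0.660, adjusted p = 0.00602). Week 1 overlapped (2.32 ± 0.695, adjusted p = 0.0483), and its call was lost without day 1 replicate 4, week 1 replicate 1, 3 or 4 or any NSC library, with an adjusted p up to 0.167.

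Rasl11a, a small GTPase of the Ras family, had 10.6%, 16.7%, 11.6% and 7.89% at day 1, 2.78%, 5.36%, 15.6% and 14.9% at week 1 and 0.758%, 1.52%, 2.08% and 1.03% in NSC. Neither time overlapped with NSC. The adjusted p was 0.0108 at day 1 and 0.0308 at week 1, and the second rose to as much as 0.145 without week 1 replicate 3 or 4 or any NSC library. Pfn3, a profilin of the testis that binds actin, averaged 11.3% ± 6.70 at day 1 (n = 5), 7.17% ± 9.00 at week 1 (n = 4) and 0.406% ± 0.505 in NSC (n = 4). Its adjusted p was 0.00111 at day 1 and 0.0367 at week 1, where the call was lost without week 1 replicate 2 or 3 or NSC replicate 1, 2 or 4 (up to 0.128).

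Vwc2, a secreted antagonist of bone morphogenetic proteins, had 13.1%, 18.8%, 25.8% and 34.1% at day 1 and 7.06%, 0%, 0% and 5.71% in NSC (log2 odds ratio 3.20 ± 0.920, adjusted p = 0.0267; up to 0.0919 without day 1 replicate 4 or 5 or NSC replicate 2 or 3). At week 1 it had 18.5%, 10% and 3.70% (adjusted p = 0.321). Bmp8a, a bone morphogenetic protein, averaged 11.5% ± 4.76 at day 1 (n = 4), 11.6% ± 3.92 at week 1 (n = 4) and 3.64% ± 1.23 in NSC (n = 4), with adjusted p of 0.0184 and 0.0241. Its day 1 call was lost without day 1 replicate 3 or 4 or NSC replicate 1 or 3 (up to 0.0594), and its week 1 call without week 1 replicate 1 or 2 or NSC replicate 1, 3 or 4 (up to 0.0764).

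Both times passed at LOC108351187 and Gnal, in each fit without 1 library too, while the fit on dense tiles ended both calls at both times. The lncRNA gene LOC108351187 had 23.2%, 11.8%, 14.5%, 25.8% and 17.6% at day 1, 27.8%, 24.4%, 18.8% and 19.8% at week 1 and 4.79%, 5.18%, 4.11% and 7.69% in NSC, with an adjusted p of 0.00278 at day 1 and 0.00229 at week 1. Gnal, the G protein subunit of olfactory receptor signalling, had 5.63%, 10.8%, 2.80%, 13.3% and 7.41% at day 1, 5.74%, 6.67%, 8.80% and 4.67% at week 1 and 0.882%, 1.32%, 1.53% and 2.02% in NSC. Its adjusted p was 0.00299 at day 1 and 0.012 at week 1, and neither gene overlapped with NSC at either time. After centring, the differences of Gnal were -1.90 points at day 1 and -1.50 at week 1.

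The promoters printed above moved by a few points. Igdcc4 averaged 7.92% ± 3.49 at day 1 (n = 4), 9.86% ± 0.841 at week 1 (n = 4) and 2.41% ± 0.942 in NSC (n = 4). The adjusted p was 0.0211 at day 1 (up to 0.089 without day 1 replicate 1 or 4 or NSC replicate 1 or 3) and 0.00881 at week 1, where every fit without 1 library kept the call. Kl averaged 4.91% ± 1.85 at day 1, 4.22% ± 2.59 at week 1 and 1.28% ± 0.413 in NSC (n = 4 each; adjusted p = 0.00948 and 0.0385, the second up to 0.206 without week 1 replicate 2 or 4 or any NSC library). Nkx6-2 differed by 2.74 points at day 1 (adjusted p = 0.0258) and 2.54 at week 1 (adjusted p = 0.0433). Its calls were lost without day 1 replicate 4 or 5 or NSC replicate 1 or 4 at day 1 (adjusted p up to 0.0944) and without week 1 replicate 2, 3 or 4 or NSC replicate 1, 2 or 4 at week 1 (up to 0.139). Zbtb47 averaged 6.76% ± 4.65 at day 1 (n = 4) and 0.306% ± 0.612 in NSC (n = 4; adjusted p = 0.012), and 2.46% ± 2.25 at week 1 (n = 3; adjusted p = 0.208). Under the centring described above, which subtracts the shift of the whole library, all 4 directions turned at day 1, to -4.47 points for Igdcc4, -6.36 for Kl, -7.25 for Nkx6-2 and -3.53 for Zbtb47. At week 1 those of Kl (-3.59) and Nkx6-2 (-3.99) turned, while Igdcc4 kept its direction at 0.92 points. With limma on log2 odds, Kl and Nkx6-2 passed at neither time and Igdcc4 did not pass at day 1. Igdcc4 at week 1 and Zbtb47 at day 1 still passed. Kl and Nkx6-2 also passed at neither time with 10 reads per cytosine.

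Dio3, the deiodinase that inactivates thyroid hormone, had 7.38%, 7.23%, 3.70%, 5.79% and 4.04% at day 1, 4.05%, 4.05%, 7.18% and 3.57% at week 1 and 0.468%, 2.87%, 0.926% and 1.55% in NSC. Neither time overlapped with NSC (adjusted p = 0.00996 and 0.0446). The week 1 call was lost without day 1 replicate 4, any week 1 library or NSC replicate 1, 3 or 4, with an adjusted p up to 0.154. Cldn7, a claudin of epithelial tight junctions, averaged 8.10% ± 2.64 at day 1 (n = 4), 6.51% ± 0.988 at week 1 (n = 4) and 2.49% ± 1.52 in NSC (n = 4). It passed at day 1 (adjusted p = 0.0173; up to 0.0711 without day 1 replicate 1 or NSC replicate 3 or 4) and not at week 1 (0.0817). Fbxo31 was a lower start at day 1, with 0% in 5 libraries and 1.22% ± 1.15 in NSC (n = 4, adjusted p = 0.00531). The summed day 1 reads allow up to 0.219%, and the 14 reads of day 1 replicate 2 alone up to 21.4%. Its day 1 call was lost with limma on log2 odds, with 10 reads per cytosine and in the fit on dense tiles. Week 1 averaged 0.766% ± 0.348 (n = 4, adjusted p = 0.697).

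**Figure D5:**
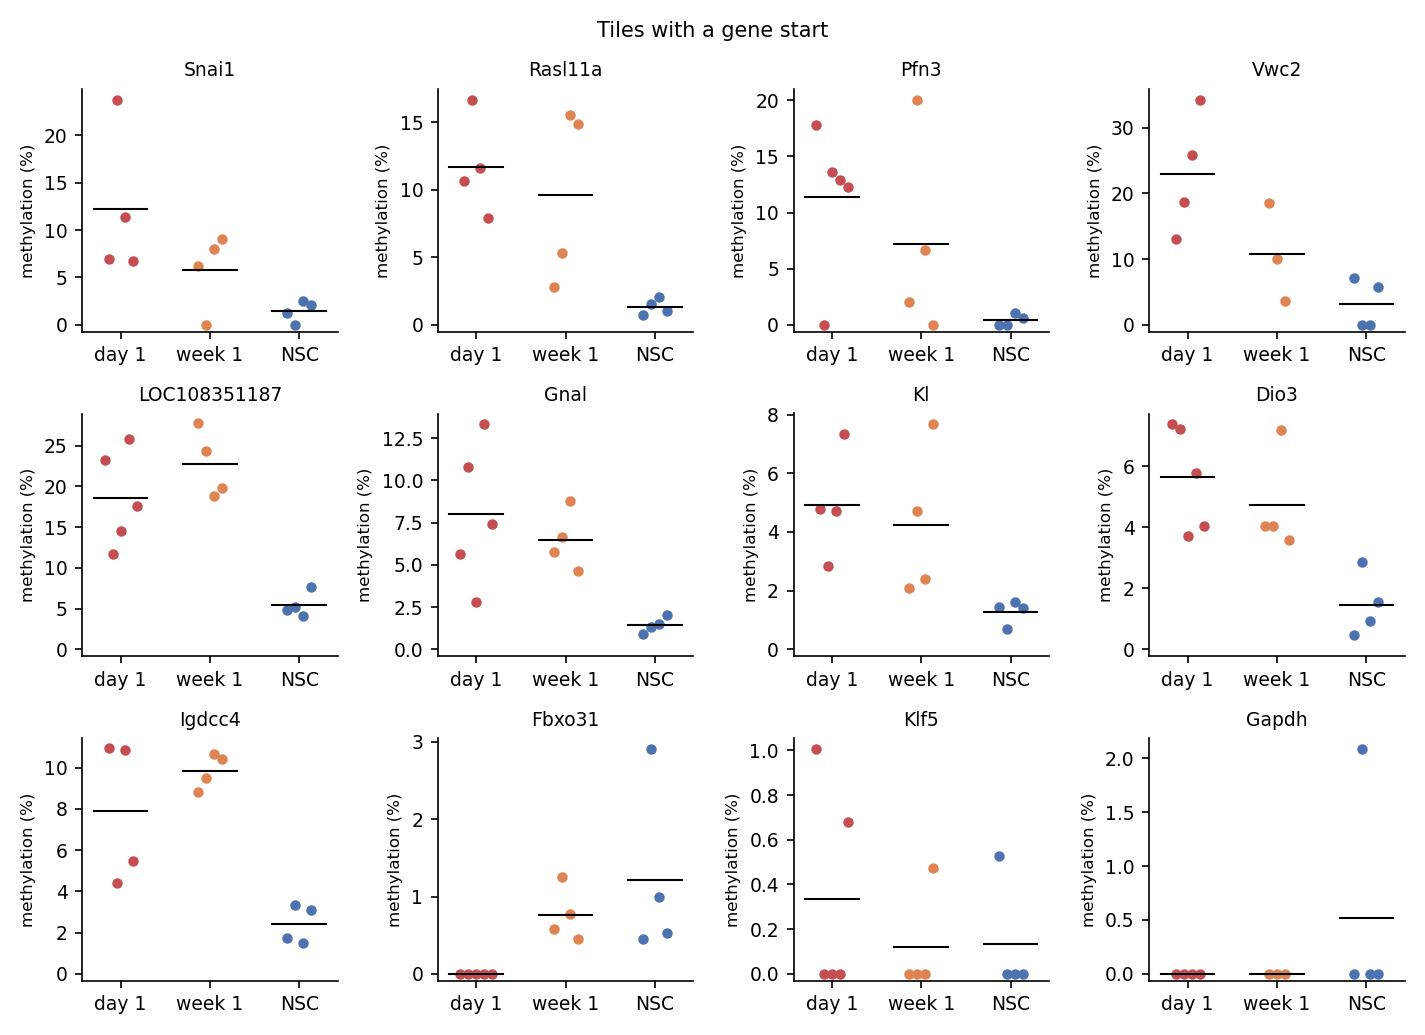
Methylation in percent (vertical axis, own scale in each panel) of 12 tiles with a gene start, by library (points) and group mean (line) for day 1, week 1 and NSC. The group means of the first 9 panels are higher at day 1 and week 1 than in NSC, Fbxo31 is at 0% in all day 1 libraries, and Klf5 and Gapdh stay at or below 2.08% in every library. For Gapdh the summed reads allow up to 2% at day 1 and 4.62% at week 1.

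Few genes of the lists used for this tissue had a start in these tiles. Of 12 oesophageal epithelial genes 1 did (Klf5, 4 placed anywhere), of 12 genes of matrix and wound repair 2 (Snai1 and Tgfb1, 4 placed), of 12 developmental regulators 3 (Hoxd1, Nkx2-1 and Tbx5, 3 placed) and of 12 housekeeping genes 3 (Gapdh, Polr2a and Ppia, 7 placed). None of 12 muscle genes and none of 12 immune cell genes was placed at all. Among the 9 starts found, Snai1 alone passed the adjusted p, in both comparisons with NSC and not between week 1 and day 1. Methylation data hold no expression, so the labelled tissue could not be checked against its markers.

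The other 8 starts were spread widely in level. Tbx5, a T-box factor of heart and forelimb, had 24.3%, 31.4% and 2.86% at day 1, 15.9%, 5.71% and 13.5% at week 1 and 5.26%, 4.40%, 5.19% and 10% in NSC (adjusted p = 0.172 at day 1 and 0.568 at week 1). Hoxd1, a homeobox gene, averaged 1.06% ± 2.13 at day 1 (n = 4), 5.42% ± 2.46 at week 1 (n = 4) and 0.847% ± 1.69 in NSC (n = 4; adjusted p = 0.898 and 0.176). Nkx2-1, a factor of the lung, thyroid and anterior foregut, averaged 3.45% ± 3.57, 4.79% ± 6.35 and 0.987% ± 1.56 in that order (n = 4, 3 and 4; adjusted p = 0.304 and 0.435). Klf5 averaged 0.337% ± 0.476 at day 1 (n = 5), 0.118% ± 0.237 at week 1 (n = 4) and 0.132% ± 0.264 in NSC (n = 4; adjusted p = 0.345 and 0.894). Polr2a, the largest subunit of RNA polymerase II, and Gapdh, a glycolytic enzyme, were at 0% in every day 1 and week 1 library that read them and averaged 0.339% ± 0.528 and 0.521% ± 1.04 in NSC (n = 4 each). The summed reads allow up to 0.535% at day 1 and 0.469% at week 1 for Polr2a, and 2% and 4.62% for Gapdh (3 counts, counting error only). The NSC means lie below these limits, so no fall after surgery is shown. For Gapdh, NSC replicate 2 alone held methylated reads (2.08%). Tgfb1, a growth factor of wound healing, and Ppia, a peptidyl-prolyl isomerase, had no methylated read in any library and could not be tested. Their summed reads allow up to 2.56% and 1.05% at day 1, 2.97% and 3.16% at week 1 and 1.60% and 1.13% in NSC.

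Levels were also compared by density and by company. Tiles with 60 to 79, 80 to 99 and 100 or more listed cytosines averaged 1.91%, 1.39% and 1.40% at day 1, 1.76%, 1.29% and 1.36% at week 1 and 1.15%, 0.910% and 0.923% in NSC. At day 1, 90 of 2357, 60 of 1367 and 54 of 1092 tested tiles passed the adjusted p (3.82%, 4.39% and 4.95%, against 10.1% of all tested tiles), of which 22, 4 and 7 also met the 10 points. At week 1, 62, 32 and 34 passed (2.63%, 2.34% and 3.11%, against 5.21%), of which 12, 0 and 4 met the 10 points. Tiles alone in their window averaged 1.41% at day 1, 1.28% at week 1 and 0.886% in NSC, and those with other dense tiles 2.06%, 1.96% and 1.28%. The difference between these classes was not tested.

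Some tiles read by at least 100 reads in every library (145 in all) set the ends of the range. The highest at day 1 was chr10:167001-168000, with 50 measured cytosines and 19.99% ± 3.63 at day 1 (14.5% to 24.0%, n = 5), 13.6% ± 5.88 at week 1 (9.49% to 22.1%, n = 4) and 10.1% ± 3.46 in NSC (5.22% to 13.3%, n = 4). Next came chr2:373001-374000, at 15.3% ± 6.44 at day 1 (n = 5), 7.44% ± 11.5 at week 1 (n = 4), with libraries from 0.935% to 24.7%, and 1.98% ± 1.39 in NSC (n = 4). At the other end, Phlpp1, a phosphatase of the Akt pathway, and Zc3h7a, a zinc finger protein, had starts in tiles at 0% in all 5 day 1 libraries. Their means were 0.262% ± 0.311 and 0.293% ± 0.587 at week 1, and 0.0649% ± 0.130 and 0.176% ± 0.352 in NSC (n = 4 each).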

How the data were processed

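RRBS libraries of rat oesophagus were made from MspI-cut, bisulfite-converted DNA with fragments over 300 bp removed, per the labels' protocols. The build was mRatBN7.2 and the tools included Bismark 0.23.0 for bisulfite reads, methylKit 1.14.2, FastQC and Trim Galore, with no settings given (per the submitters' processing notes). The deposited files hold, for each cytosine with 5 or more reads, the counts of methylated reads and of all reads; the methylation percent deposited beside them is truncated to a whole number and was recomputed from the counts. These counts were summed over the measured cytosines of each 1 kb tile and tested with the edgeR 4.0.16 quasi-likelihood F test (R 4.3.3; library and group effects, common dispersion), with Benjamini-Hochberg adjustment over 63345 tiles and standard errors approximated from F. Limma 3.58.1 was an alternative. A call needed an adjusted p below 0.05 and 10 points; the tests were tried on simulated data.

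A read is counted at each cytosine it covers, so intervals cover counting error only. P-values measure the spread between samples, which may be technical. Tiles named were those called without overlap of groups, by size of change, those with most cytosines, the highest and lowest deep tiles and those beside the limit. Gene starts and tiles with the lowest p were added after values were seen. Members and gene lists were chosen with earlier results of these data known. Gene starts were placed through CpG spacing of RefSeq GRCr8 promoters; no genome of mRatBN7.2 was used. Strand and position within tiles were not described.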

Additional observations from a re-analysis of the deposited data

Results flagged for a closer look

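Among 121 groups of 4 or 5 libraries examined for 1 library far from the others, 14 held such a library. The usual chance rate of about 1 in 20 groups does not apply where the other libraries are all at 0%. There any methylated read flags its library, so nothing is read from the count. Week 1 libraries stood apart at chr14:86255001-86256000 (replicate 2, 92.0%), chr15:45249001-45250000 (replicate 2, 68.0%) and chr1:246754001-246755000 (replicate 3, at 5.88% below the others). At gene starts, week 1 replicate 3 stood apart for Dio3 (7.18%) and week 1 replicate 4 for Klf5 (0.474%). Day 1 replicate 1 stood apart for Hoxd1 (4.26%).

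The other 8 were NSC libraries. NSC replicate 1 stood apart at chr1:78742001-78743000 (5.45%), at chr5:14532001-14533000 (7.58%) and at the starts of Hoxd1 (3.39%), Zbtb47 (1.22%) and Klf5 (0.527%). NSC replicate 2 did so for Gapdh (2.08%), NSC replicate 3 at chr18:27669001-27670000 (1.52%) and NSC replicate 4 for Tbx5 (10%). Several of these are the single library with a methylated read among libraries at 0%.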

How the results depend on the processing

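Counts against NSC moved with the processing, and the cause was not tested. In some settings fewer tiles or cytosines entered. The 33 tiles called at day 1 became 13 with 10 reads per cytosine, 2 with 20 reads, 4 with cytosines listed in all 13 libraries, 19 with limma on percent, 1364 with limma after centring (4 higher, 1360 lower), 9 in the fit on dense tiles, 5 at 25 points, 78 at 5 points, 204 with no minimum and 11 with 80 or more listed cytosines. In the same settings the 16 called at week 1 became 8, 2, 1, 7, 39 (3 higher, 36 lower), 3, 3, 42, 128 and 4, and also 9 with limma on log2 odds and 9 below 5% in NSC. With the adjusted p alone, the share of the 5266 tiles that passed was 3.87% at day 1 and became 1.54% with 10 reads, 0.361% with 20 reads, 0.760% with cytosines in all libraries, 1.41% after thinning to 5 reads, 1.03% with limma on percent, 85.2% after centring, 0.475% in the dense fit and 2.16% with 80 or more listed. At week 1 it was 2.43% and became 1.06%, 0.285%, 0.475%, 0.684%, 0.399%, 5.24%, 0.247% and 1.25% in that order, and 1.44% with limma on log2 odds. Only 1159 tiles could be tested with 10 reads, 112 with 20 reads and 656 with cytosines in all libraries, against 4816 in the main fit. Among them 81, 19 and 40 passed at day 1 and 56, 15 and 25 at week 1, against 204 and 128. A lower share of the 5266 in these settings is therefore not a lower share of the tested tiles. Held-out counts of 13 at day 1 and 5 at week 1 became 6 and 1 with 10 reads (1127 tiles tested, against 4665), and 60 and 24 with no minimum. Week 1 against day 1 gave 0 calls in every setting and every fit without 1 library.

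Leaving out 1 library in turn gave 27 to 43 calls at day 1 and 9 to 21 at week 1, and shares of 2.18% to 4.06% at day 1 and 0.912% to 2.54% at week 1 with the adjusted p alone. Mean levels then ranged over 1.62% to 1.69% at day 1, 1.52% to 1.60% at week 1 and 1.01% to 1.06% in NSC. Levels were 1.90% at day 1 and 1.12% in NSC with 10 reads, 1.52% at day 1 and 1.45% at week 1 with cytosines in all libraries, and 1.45% at week 1 with reads pooled.

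Centring subtracts each library's median over tiles, so by construction it turned small increases round. Differences then were -7.25 points at day 1 and -3.99 at week 1 for Nkx6-2, -4.28 and -3.27 for Dio3, -6.36 and -3.59 for Kl, -1.90 and -1.50 for Gnal, -2.20 at week 1 for Snai1, and at day 1 -2.15 for Bmp8a, -4.47 for Igdcc4, -3.53 for Zbtb47 and -4.38 for Cldn7. All 25 tiles of the dense fit at day 1 and all 13 at week 1 were among the 204 and the 128, against 128 of 188 and 55 of 76 tiles with limma on log2 odds. No paired analysis was possible because the labels carry no replicate numbers; numbers follow accession order. Median depth was 6 to 8 reads per cytosine; what size of change this depth can detect was not tested.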
